A study of Mus musculus with 6 samples.

Results

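Complement is the plasma protein cascade that tags surfaces for removal, and choroid ECs, the cells lining the vessels behind the retinal pigment epithelium (RPE), face it from the blood side. The genes described here are 9 complement components and regulators of relevance to macular degeneration, chosen by their symbols: C3, C4b, Cfb, Cfi, Serping1, Clu, Cd55, Cd59a and Cd46. All 9 had a row among the 22026 gene symbols of the series. Transcriptomes of choroid ECs had been sequenced from 129/B6 mice at postnatal day 5 (P5), while the outer retina is still maturing, and at postnatal day 30 (P30), with 3 independent isolations per age and tissue of 7 animals pooled in each. ECs were labelled in the living animal with an antibody to VE-Cadherin and sorted by flow cytometry out of digested RPE/choroid. By the study's methods P5 mice were anaesthetized by cooling and given a smaller antibody dose than P30 mice, which cannot be told apart from age. Values are FPKM, a read level scaled to transcript length and, by upper quartile normalization, to each library, so levels of different genes can be compared per length. Summed over all symbols, they came to 1.43e+06 to 1.49e+06 in the P5 isolations and 1.57e+06 to 1.73e+06 in those of P30. Where 3 values are given for an age, they stand in the order of replicates 1, 2 and 3. The comparison asked which complement genes choroid ECs carried at different levels before and after visual maturity.

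As background, complement is started by C1q bound to antibody or other targets, by lectins, or by spontaneous turnover of C3 in the alternative pathway, in which factor B supplies the protease. All routes converge on cleavage of C3, and C4 plays the corresponding part in the classical and lectin routes. Host cells hold the cascade in check with soluble inhibitors such as C1 inhibitor and clusterin, and with membrane proteins such as CD55, which dissociates convertases, and CD59, which blocks the membrane attack complex. The choroid and Bruch's membrane are known as sites of complement deposition in age-related macular degeneration, and variants of several complement genes are associated with that disease in humans.

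The genes of the 9 that passed the limits for a difference between ages were 2 soluble regulators, Clu and Serping1. Clu, which encodes clusterin, a chaperone that also binds terminal complement complexes, rose from 43.4 ± 6.88 FPKM (mean ± SD, n = 3 isolations here and below) at P5 to 622 ± 318 at P30. Serping1, which encodes C1 inhibitor, the serpin that inactivates the C1r and C1s proteases, rose from 58.8 ± 20.8 to 306 ± 131. C4b, the murine C4 component, was higher at P30 in each isolation but did not pass the limits. Cfb, Cd55, Cd59a and Cd46 differed by less than 2-fold in mean FPKM, and C3 and Cfi lay near 0 at both ages.

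Differences between ages were tested with limma on log2(FPKM + 1) over 12481 genes, those that averaged 5 FPKM or more at P5, at P30 or at both. Calls required a Benjamini-Hochberg adjusted p under 0.01 and age means of FPKM + 1 that differed 2-fold or more, which 11.7% of all genes tested met in either direction. Of the 9 genes 7 were tested, and C3 and Cfi fell below the minimum. C4b passed the minimum through its P30 level alone. Of the 7 genes tested, 2 were called higher at P30, against 5.89% of all genes tested, and 0 were called higher at P5, against 5.82% of all genes tested. At an unadjusted p under 0.05 in limma, 3 of the 7 were higher at P30, against 20.7% of all genes tested, and 1, Cd55, was higher at P5, against 28.8%. The median difference in log2(FPKM + 1), P30 minus P5, was 0.463 over the 7 genes and -0.097 over all genes tested. Every P30 isolation lay above every P5 isolation in 5 of the 7, against 22.0% of all genes tested, and the reverse held for 1, Cd55, against 33.0%.

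**Figure D1:**
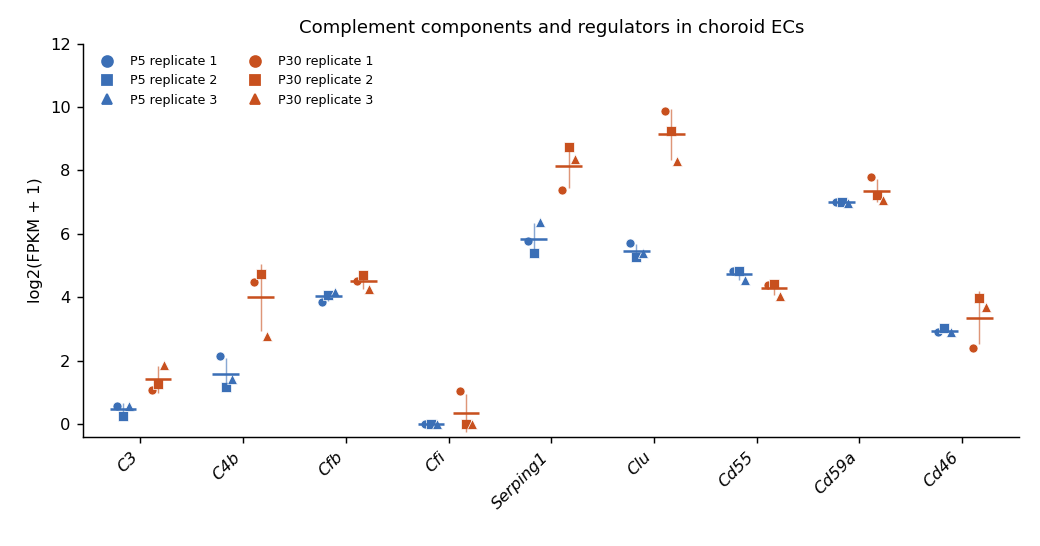
Level of each of the 9 complement genes as log2(FPKM + 1) in 3 P5 isolations (blue) and 3 P30 isolations (orange), with marker shapes for the replicate number, horizontal bars for the mean and vertical bars for 1 SD. Clu and Serping1 stand well apart between ages, C3 and Cfi sit near 0, and the P5 isolations of Cd59a nearly coincide.

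Markers of the sorted cells and of other cell types were compared between ages first. A list of 10 endothelial markers, Plvap, Emcn and Cldn5 being the most abundant, summed to 21779 to 23403 FPKM in the P5 isolations and to 30645 to 37052 in those of P30, and all 10 were among the detected genes at both ages. Plvap made up much of the higher sum (4692 and 11590 in mean FPKM at P5 and P30). Cdh5, which encodes the VE-Cadherin used for sorting, was lower at P30 without overlap (2971 and 1885 in mean FPKM, adjusted p = 0.00205 from limma), by less than 2-fold, and Pecam1 overlapped between ages (1611 and 1421). A list of 8 RPE markers summed to between 91.3 and 178 at P5 and between 554 and 3939 at P30, and each of the 8 was higher in every P30 isolation. Its most abundant gene, Ttr, is shared with other secretory epithelia, and Rpe65, its defining enzyme, was listed at 0 in P5 replicates 2 and 3. Summed fibroblast markers (8 genes, 4 of them without overlap between ages) ranged from 754 to 1275 at P5 and from 1846 to 4568 at P30. The 7 pericyte markers, of which 4 did not overlap, ranged from 476 to 1748 and from 1880 to 6375. The sum of 10 macrophage and leukocyte markers, Lyz2, Csf1r and Mrc1 being the most abundant, went the other way. It lay between 993 and 1261 at P5 and between 341 and 954 at P30. Of the 10, 7 were higher in every P5 isolation. The other 3 overlapped between ages, among them Lyz2 (204 and 254 in mean FPKM at P5 and P30). In these bulk samples, more cells of a type and more RNA per cell cannot be told apart.

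The central component was close to 0. C3, on whose cleavage all routes of the cascade converge, was listed at 0.48, 0.20 and 0.50 FPKM at P5, against 1.11, 1.43 and 2.67 at P30. The ages did not overlap, but at 1.74 ± 0.824 the P30 level remained below the minimum for a test. C3 lies on chromosome 17 (57343397 to 57367559, minus strand, mm9, GENCODE). Cfi, which encodes factor I, the protease that degrades C3b and C4b with the help of a cofactor, was listed at 0 in all isolations but P30 replicate 1, where it had 1.06. It lies on chromosome 3 (129539655 to 129578246).

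C4b had 3.42, 1.24 and 1.67 FPKM at P5, against 21.3, 25.5 and 5.88 at P30. Each P30 value was above each P5 value, although P30 replicate 3 was far below the other P30 isolations. The difference in log2(FPKM + 1) was 2.42 (SE 0.57, adjusted p = 0.0148 from limma), which missed the limit of 0.01. Without P30 replicate 3 it was 3.03 and passed (adjusted p = 0.00268 from limma), and with a pseudocount of 5 it was 1.55. C4b (chromosome 17, 34865325 to 34880827, minus strand, mm9) has a close copy, C4a, 65.2 kb away, and 33.0% of the 50-base windows in its annotated exons occur in C4a exons as well. How reads were divided between the copies was not given, so its level is uncertain to that extent. C4a itself had 0.88 to 1.42 FPKM in the P5 isolations and 1.62 to 5.52 in those of P30.

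Cfb, which encodes the protease of the alternative pathway convertase, lies 112 kb from C4b on chromosome 17 (34993319 to 34999463). Its FPKM was 13.6, 15.9 and 16.97 at P5, against 22.0, 25.3 and 18.1 at P30. Although the ages did not overlap, the difference of 0.46 in log2(FPKM + 1) did not pass the test (95% interval -0.01 to 0.93, adjusted p = 0.106 from limma). In the GENCODE annotation of mm9, 79.5% of the Cfb exon bases are shared with Gm20547, a protein-coding locus of the same strand, so reads from these bases cannot be told apart.

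Of the 7 genes tested, Clu differed most between ages on the log2 scale. It had 51.1, 37.9 and 41.3 FPKM at P5, against 948, 606 and 312 at P30. The lowest P30 isolation was still far above the highest P5 isolation, and the P30 isolations differed widely among themselves. The difference in log2(FPKM + 1) was 3.68 (SE 0.36, adjusted p = 0.000486 from limma), and its call held under the 14 alternative fits, between 3.31 and 4.11. Among all 22026 symbols its mean level moved from above 68.1% of them at P5 to above 98.2% at P30. Clu lies on chromosome 14 (66587320 to 66600385, plus strand, mm9).

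The P30 order of isolations for Clu was that of the summed RPE markers (3939, 2228 and 554 FPKM at P30). It was also that of the sums of the 6 melanocyte markers (1262, 1126 and 121), the 8 photoreceptor markers (366, 244 and 41.8) and the 6 Schwann cell markers (300.3, 121 and 55.5). Among RPE markers Best1, below the minimum for a test, departed from this order (4.54, 4.18 and 4.51 at P30). The other lists also held genes that departed from it. The RPE sum spanned a wider range over the P30 isolations than Clu did. P30 replicate 3 had the lowest of these sums at P30. Its melanocyte sum of 121 lay within the P5 range of 98.4 to 463, as the Schwann cell sum of 55.5 did within 30.5 to 73.4. The RPE sum of 554 and the photoreceptor sum of 41.8 remained above their P5 ranges of 91.3 to 178 and 2.70 to 9.60. Clu stood at 312 in that isolation, against at most 51.1 at P5. The part of RNA from these cells in the Clu difference was not tested.

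Serping1 had 54.1, 40.7 and 81.5 FPKM at P5, against 165, 425 and 327 at P30. The ages did not overlap, and P30 replicate 1 was the lowest of its age. The difference was 2.31 in log2(FPKM + 1) (SE 0.37, adjusted p = 0.00348 from limma). The call was lost without P5 replicate 1 (adjusted p = 0.0159), without P5 replicate 2 (adjusted p = 0.0167) and without P30 replicate 3 (adjusted p = 0.0109, limma in each case), with differences between 2.08 and 2.28. Serping1 lies on chromosome 2 (84605544 to 84615601, minus strand, mm9).

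Serping1 was lowest in the P30 isolation with the highest RPE sum, and its P30 order was that of the fibroblast and pericyte sums. Fibroblast markers summed to 1846, 4568 and 2449 FPKM at P30, and pericyte markers to 1880, 6375 and 3894. Among fibroblast markers Dcn did not overlap between ages, while the similarly abundant Col3a1 and Col1a2 did. Col3a1 and Col1a2 had the P30 order of Serping1, but Dcn was lowest in replicate 3 (854, 1439 and 820). Some less abundant fibroblast markers also departed from that order. At P5, Serping1 was highest in replicate 3, as was the fibroblast sum (1221, 754 and 1275), whereas the pericyte sum was lowest there (1748, 919 and 476). Of all genes tested, 46.1% were likewise highest in replicate 2 among the P30 isolations. The part of stromal RNA in the Serping1 difference was not tested.

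**Figure D2:**
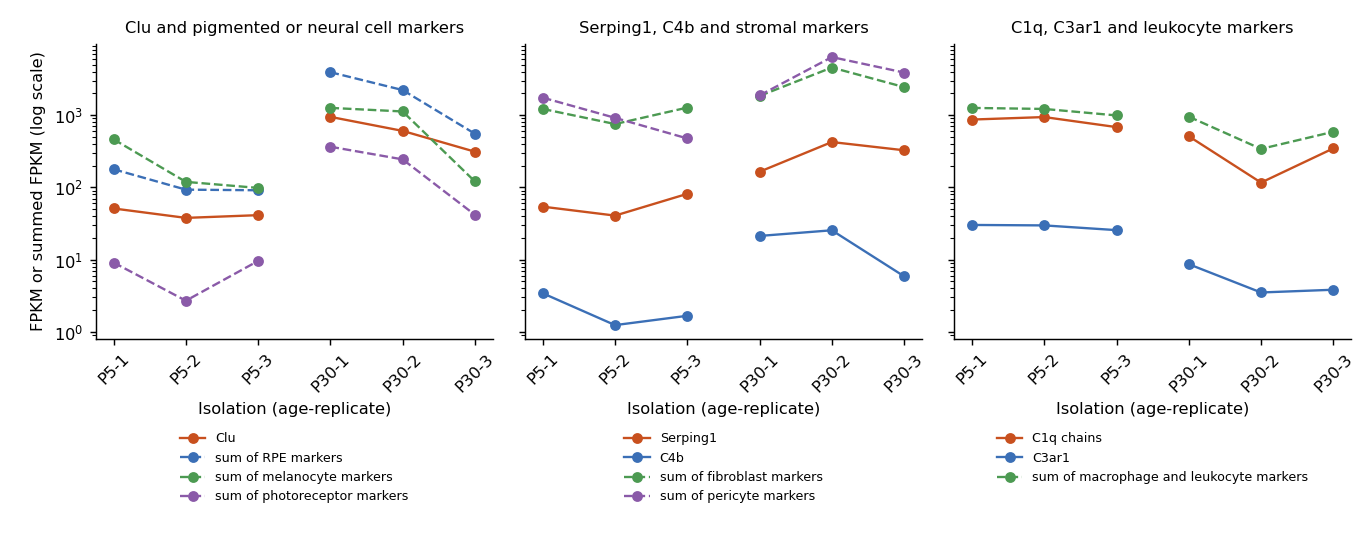
FPKM of complement genes (solid lines) and summed FPKM of marker lists (dashed lines) on a log axis in each of the 6 isolations, with lines joining the isolations of an age as a guide to the eye. At P30, Clu and the RPE sum are highest in replicate 1, and Serping1 and the fibroblast and pericyte sums in replicate 2. The sums of C1q chains and of leukocyte markers are lowest in replicate 2.

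The genes whose profiles lay nearest to these 2, by the root mean square difference of centred log2(FPKM + 1) over the 6 isolations among the genes tested, were as follows. For Serping1 they were Slc26a7 (0.113), an anion transporter gene, Prelp (0.252), which encodes a leucine-rich matrix protein, and Thsd4 (0.257). Prelp had between 16.9 and 20.9 FPKM at P5 and 51.8, 187 and 112 at P30. For Clu they were Eps8l2 (0.222), Slc10a6 (0.261) and 2210407C18Rik (0.262), and Eps8l2 had 69.9, 51.9 and 33.0 at P30 against at most 3.31 at P5. Apart from Prelp, each of these genes lay below 5 FPKM in every P5 isolation and was tested only through its P30 level. 2210407C18Rik was listed at 0 in all P5 isolations. Genes picked as near to a called member share its rise by construction.

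The 3 membrane regulators showed smaller differences. Cd59a, which encodes the widely expressed murine form of the inhibitor of membrane attack, was the most abundant of the 9 genes at P5, with 127, 129 and 125 FPKM. It had 219, 150 and 134 at P30, so the ages did not overlap, but the gap between P30 replicate 3 and the P5 isolations was small. The difference of 0.37 did not pass the test (95% interval -0.06 to 0.79, adjusted p = 0.144 from limma), and was 0.16 without P30 replicate 1. Cd59a (chromosome 2, 103935958 to 103955511, mm9) shares 4.47% of its 50-base exon windows with its neighbour Cd59b, 4.61 kb away, which had between 6.13 and 16.7 FPKM.

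Cd55, which encodes decay-accelerating factor, a lipid-anchored protein that breaks up C3 convertases, was the one gene of the 9 whose P5 isolations all lay above the P30 isolations. It had 27.5, 27.4 and 22.1 FPKM at P5, against 19.9, 20.3 and 15.5 at P30. The difference in log2(FPKM + 1) was -0.45 and did not pass the test (95% interval -0.90 to -0.01, adjusted p = 0.0964 from limma). Within an isolation, the ratio of Cd59a to Cd55 FPKM was 4.60, 4.69 and 5.67 at P5, against 11.0, 7.39 and 8.65 at P30, a description for which no test was run. Cd55 lies on chromosome 1 (132335604 to 132359321, minus strand), 16.0 kb from its copy Daf2, with which it shares 6.21% of its windows. The noncoding gene Gm16083 lies opposite 2.10% of its exon bases, and the library kit did not mark strand.

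Promoter sequences of 4 of the 9 genes (C3, Cd55, Cd59a and Cd46) were matched by symbol in RefSeq (build GRCm38.p6). Those of Cd55 and Cd59a are shown because these inhibitors act at successive steps on the same membrane and lay on opposite sides of 0 between ages. Neither difference passed the limits, and the pair was picked after its values were seen. A link between promoter sequence and age was not tested. Each line gives the 250 bases before the annotated start, 5′ to 3′ on the gene's strand, with CpG dinucleotides in capitals, for Cd55 at chr1:130462745-130462994 (minus strand) and for Cd59a at chr2:104095551-104095800 (plus strand).
Cd55: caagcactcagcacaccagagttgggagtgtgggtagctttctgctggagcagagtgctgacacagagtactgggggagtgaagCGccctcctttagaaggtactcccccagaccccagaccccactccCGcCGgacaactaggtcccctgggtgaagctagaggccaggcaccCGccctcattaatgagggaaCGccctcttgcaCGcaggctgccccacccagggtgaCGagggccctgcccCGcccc
Cd59a: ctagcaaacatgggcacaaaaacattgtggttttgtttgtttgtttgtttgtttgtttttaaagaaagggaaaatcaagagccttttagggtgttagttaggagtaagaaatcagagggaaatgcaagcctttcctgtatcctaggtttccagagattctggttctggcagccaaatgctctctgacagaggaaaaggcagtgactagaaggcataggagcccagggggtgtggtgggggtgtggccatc

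The Cd55 window held 8 CpG dinucleotides and 64.0% G and C, the Cd59a window 0 and 44.8%, and the median over all RefSeq promoters of this length was 52.4% G and C. The corresponding windows of C3 and Cd46 held 1 and 10 CpG dinucleotides. Neither TTCNNNGAA, the form of a gamma-interferon-activated site, nor TGACTCA, the form of an AP-1 site, was found on either strand in the 4 windows, and these letters occur in 7.02% and 4.46% of the 32851 promoter windows. Neither motif contains the other.

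Cd46, which encodes membrane cofactor protein, is known in rodents mainly from the testis, and its part on other murine cells is taken by Crry, the product of Cr1l. Its FPKM was 6.54, 7.14 and 6.56 at P5, against 4.31, 14.8 and 11.9 at P30, so that the ages overlapped through P30 replicate 1. The difference was 0.41 (95% interval -0.60 to 1.42, adjusted p = 0.478 from limma), an interval that spans changes in either direction, and lay between 0.10 (without P30 replicate 2) and 0.88 (without P30 replicate 1) when 1 P30 isolation was left out. Cd46 (chromosome 1, 196867479 to 196918442, mm9) lies 11.5 kb from Cr1l, and no 50-base window is shared between their exons.

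The order of levels differed between ages. At P5 it ran Cd59a, Serping1, Clu, Cd55, Cfb, Cd46, C4b, C3 and Cfi from highest to lowest, and only Serping1 and Clu, next to each other in that order, overlapped in their isolations. At P30 the order was Clu, Serping1, Cd59a, Cfb, Cd55, C4b, Cd46, C3 and Cfi. Among neighbours in that order, Clu overlapped Serping1, Serping1 overlapped Cd59a, Cfb overlapped Cd55, Cd55 overlapped C4b, and C4b overlapped Cd46. Cfb and C4b, which are not neighbours, overlapped as well (18.1 to 25.3 and 5.88 to 25.5 FPKM at P30). The 9 genes summed to 280 ± 18.7 FPKM at P5 and 1166 ± 301 at P30. Clu made up between 13.9% and 18.0% of this sum at P5 and between 37.8% and 67.6% at P30, and Cd59a between 42.4% and 49.7% at P5 and between 11.8% and 16.2% at P30. The lower share of Cd59a at P30 reflects the larger sum, since its own level was not lower (127 and 168 in mean FPKM at P5 and P30).

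Other genes of the cascade were taken from a fixed list of 49 symbols, of which 45 were matched. Of these 13 were listed at 0 in every isolation, among them Cfd (factor D, the protease that activates factor B), Hc (C5), C8a, C8b and C9. Of the 21 tested, 4 were called higher at P30 (C1ra, C1rb, C1s and Vtn) and 2 higher at P5 (C3ar1 and Cd93), against 5.89% and 5.82% of all genes tested. C1rb and Vtn passed the minimum through their P30 level alone. The median difference in log2(FPKM + 1) was -0.479 over these 21 genes and -0.097 over all genes tested.

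**Figure D3:**
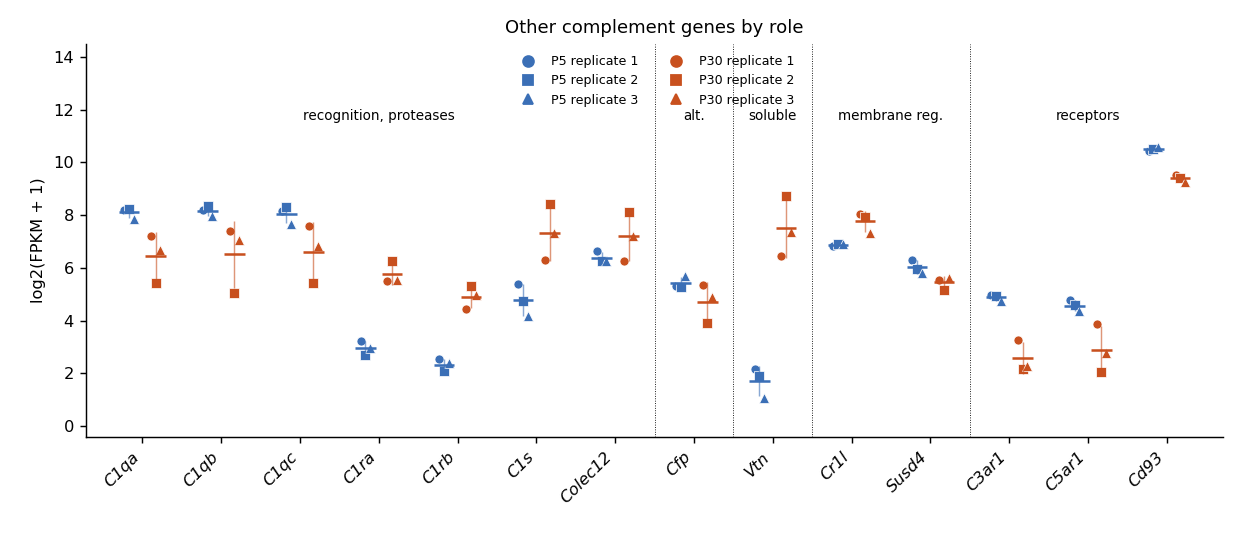
Level of 14 named genes of the wider complement list as log2(FPKM + 1), ordered by role, in 3 P5 isolations (blue) and 3 P30 isolations (orange), with horizontal bars for the mean and vertical bars for 1 SD. The C1q chains lie lower at P30 while C1ra, C1rb and C1s lie higher, and Cd93 is the most abundant of those plotted.

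The subunits of C1, the initiating complex of the classical pathway, differed in direction. The chains of C1q (C1qa, C1qb and C1qc), made mainly by macrophages, together had 870, 942 and 684 FPKM at P5, against 511, 117 and 347 at P30. Their differences in log2(FPKM + 1) of -1.66, -1.66 and -1.42 did not pass the limits (adjusted p = 0.0163, 0.0490 and 0.0567 from limma). Their P30 order was that of the sum of macrophage and leukocyte markers (954, 341 and 589 at P30). The part of these cells in the difference was not tested. C1qa passed the limits without P30 replicate 1 (adjusted p = 0.00656) and without P30 replicate 2 (adjusted p = 0.00790, limma in both cases). Without P30 replicate 2 the differences of C1qb and C1qc were -0.93 and -0.82, under 2-fold.

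The protease subunits, which are the targets of C1 inhibitor, rose. C1ra had 8.30, 5.58 and 6.84 FPKM at P5, against 44.7, 76.4 and 45.4 at P30 (difference 2.81 in log2(FPKM + 1), SE 0.26, adjusted p = 0.000408 from limma). C1rb rose by 2.58 (SE 0.30, adjusted p = 0.000858 from limma), but 37.6% of the C1ra exon windows also occur in C1rb and 55.7% of those of C1rb in C1ra, so their division is uncertain. C1s had 41.5, 26.2 and 17.1 at P5 and 77.8, 342 and 158 at P30. Its difference of 2.56 (SE 0.53, adjusted p = 0.00894 from limma) lay close to the limit, and 8 of 14 alternative fits ended its call, with an adjusted p of up to 0.0424 in limma. At P30, C1ra, C1rb and C1s were all highest in replicate 2, as Serping1 and the fibroblast and pericyte sums were. So were 46.1% of all genes tested, and the part of stromal RNA was not tested.

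Among soluble regulators of the wider list, Vtn rose. Vtn encodes vitronectin, an adhesion protein that also binds the terminal complex, and is known in the retina from pericytes. It had 3.55, 2.70 and 1.09 FPKM at P5, against 86.7, 425 and 162 at P30 (difference 5.80 in log2(FPKM + 1), SE 0.57, adjusted p = 0.000463 from limma). Since its P5 mean lay below the minimum, it was tested only through its P30 level. Its P30 isolations had the order of the pericyte and fibroblast sums, whose part in the result was not tested. Replicate 2, the highest of them, was also the highest for 46.1% of all genes tested.

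Among membrane regulators outside the 9 genes, Cr1l had 112, 118 and 120 FPKM at P5, against 263, 244 and 159 at P30, which did not overlap. Its adjusted p of 0.00927 from limma passed, but the difference of 0.89 in log2(FPKM + 1) was under 2-fold. It was called with median ratio scaling, at 0.98, and without P30 replicate 3, at 1.11. Susd4, which encodes a membrane inhibitor with complement control modules, differed by -0.58 (adjusted p = 0.0450 from limma).

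Of the receptors, Cd93 and C3ar1 fell. Cd93, an endothelial and myeloid surface lectin once described as a C1q receptor, had 1392, 1466 and 1536 FPKM at P5, against 732, 671 and 617 at P30 (difference -1.12, SE 0.10, adjusted p = 0.000366 from limma). C3ar1, the receptor of the C3a fragment, had 30.2, 29.8 and 25.6 at P5 and 8.65, 3.51 and 3.83 at P30 (difference -2.31, SE 0.33, adjusted p = 0.00207 from limma), and its call was lost without any 1 of the P5 isolations (adjusted p of up to 0.0160 in limma). C5ar1, the receptor of C5a, had 26.3, 22.9 and 19.5 at P5 and 13.6, 3.18 and 5.91 at P30, and did not pass the limits (difference -1.66, adjusted p = 0.0225 from limma), except without P30 replicate 1 (adjusted p = 0.00310 from limma). For C3ar1 and C5ar1, as for the sum of macrophage and leukocyte markers, P30 replicate 1 was the highest and replicate 2 the lowest of its age. Of that list Cd68 departed from this order, being lowest in replicate 1 (77.89, 83.45 and 122 FPKM at P30). Ptprc differed little between the P30 isolations (7.97, 7.61 and 7.88). The part of macrophages and leukocytes in the differences of these receptors was not tested.

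**Figure D4:**
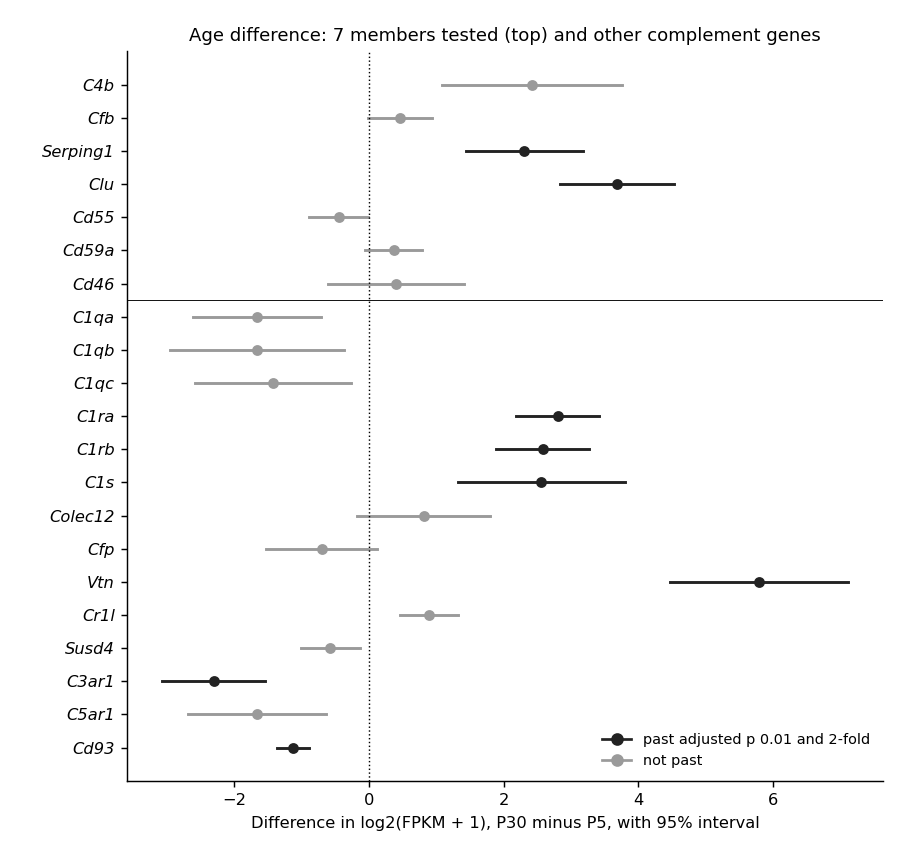
Difference in log2(FPKM + 1), P30 minus P5, with its 95% interval from limma for the 7 tested members of the 9 genes (above the line) and 14 named genes of the wider list (below), in black where the limits were passed. Among the 7, intervals of Cfb, Cd59a and Cd46 include 0. Those of Clu, Serping1, C1ra, C1rb, C1s and Vtn lie above 1, as does that of C4b, which did not pass the limits.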

How the data were processed

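RNA of sorted choroid ECs was measured in 3 P5 and 3 P30 isolations, grouped by their titles. Per the submitters' processing notes and the study's methods, reads (CASAVA 1.8.2, FastQC) were aligned to mm9 with TopHat, and Cufflinks with GC and upper quartile normalization gave the FPKM values that the authors deposited, to 2 decimals. Versions of TopHat and Cufflinks and the gene annotation were not given in the sources used here. Read counts were not used here, so depth is unknown and no counting error is given. Between 33.4% and 37.3% of symbols were listed at 0, which does not show that a gene is off.

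From the deposited FPKM, log2(FPKM + 1) was tested in limma 3.58.1 (R 4.3.3, functions lmFit and eBayes, trended prior variance, no block) over genes averaging 5 FPKM or more at either age. A call needed an adjusted p under 0.01 and 2-fold in mean FPKM + 1. The pseudocount understates changes of low genes. The code of the fit was run on simulated data with independent noise for each gene. Deviations that genes of an isolation share were not part of that check. Overlap of the 3 against 3 isolations is a description. Python 3.11.15 and pandas 2.3.3 were used for joins. Positions are GENCODE on mm9, matched by symbol. Shared windows are exact 50-base matches on either strand within annotated exons. Of the wider complement list, genes that were called or averaged 20 FPKM or more at either age are named, apart from 2 that are not reported here. The other named genes are the 3 nearest profiles of each called member and at most 3 genes per marker list. Outside this rule, and after their values were seen, copies of members (C4a, Daf2, Cd59b) and genes listed at 0 are named. So are Fcna, Cdh5, Pecam1, Rpe65, Best1, Ptprc and Cd68. The members, lists and motifs were chosen with earlier results of these data known. Replicate numbers were not used as pairs, since the study's methods describe no pairing. Same-numbered isolations had deviations correlated between -0.0905 and -0.0305. Alternatives were other pseudocounts, minimum values, scalings and limits, no trend, a replicate block and each isolation left out.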

Additional observations from a re-analysis of the deposited data

How the results depend on the processing

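Over 14 alternative fits, no difference of a tested member, or of another complement gene named for its call or its level, changed its sign. Of the fits of the members, 94 kept the side of the limits, 3 lost a call (Serping1, in the fits described above) and 1 gained a call (C4b without P30 replicate 3). Leaving out 1 isolation gave between 1 and 2 members called higher at P30, and the 2 without P30 replicate 3 were Clu and C4b in place of Clu and Serping1. It gave between 1 and 4 other complement genes called higher at P5, since C3ar1 was lost without any 1 P5 isolation and C1qa and C5ar1 were gained without P30 replicate 1 (C1qa also without P30 replicate 2). At an adjusted p under 0.05 with no fold limit, the other complement genes numbered 7 with P30 above P5 and 7 with P5 above P30, which follows from the wider limits, and 3 members were higher at P30. With the replicate number as a replicate block, 2 members and 3 other complement genes were called higher at P30 (C1s was lost) and 2 others higher at P5, while over all genes 585 and 524 were called against 735 and 726 without it. Leaving out 1 isolation gave 396 (without P5 replicate 3) to 849 (without P30 replicate 3) genes higher at P30 and 291 (without P5 replicate 2) to 754 (without P30 replicate 2) higher at P5, and the wider limits gave 2011 and 2794. Deviations from the age means correlated at -0.0609 on average between isolations of like number, so they share a number and no sign of pairing was seen. Median ratio scaling moved the median difference of all genes tested from -0.097 to -0.013. Depth is unknown, which limits statements on genes near 0 such as C3 and Cfi.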

Other observations

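The P30 isolations parted the 28 tested complement genes by which isolation was highest. Replicate 1 was highest for 14 of them, including Clu, Cd59a, Cr1l, Cd93, the C1q chains, Cfp, C3ar1 and C5ar1. Replicate 2 was highest for 12, including Serping1, C4b, Cfb, Cd55, Cd46, C1ra, C1rb, C1s, Colec12 and Vtn, and replicate 3 for Fcna and Susd4. Over all genes tested, replicates 1, 2 and 3 were highest for 30.0%, 46.1% and 23.9%.

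Some complement genes named for their level did not pass the limits. Colec12, a scavenger receptor with a collectin domain, had between 75.1 and 99.2 FPKM at P5 and 75.2, 281 and 147 at P30 (adjusted p = 0.162 from limma), and its log2 difference of 0.81 was 0.34 without P30 replicate 2 and 1.29 without P30 replicate 1. Cfp, which encodes properdin, the stabiliser of the alternative pathway convertase, had between 38.1 and 50.3 at P5 and 40.3, 13.99 and 28.8 at P30 (adjusted p = 0.152 from limma), and its log2 difference of -0.70 was -0.29 without P30 replicate 2. Smooth muscle markers summed to 535 to 562 FPKM at P5 and 603 to 1235 at P30, and 4 of the 5 did not overlap. Schwann cell markers summed to 30.5 to 73.4 at P5 and 55.5 to 300.3 at P30, with 3 of the 6 higher in every P30 isolation, and none of the genes in these lists was at 0 in all isolations.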
